A study of Sus scrofa with 18 samples.

Results

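The cytosolic ribosomal protein genes of the pig were described here at the level of the chromatin of their gene ends, as a housekeeping reference in the uterine muscle. The members were the protein-coding RefSeq genes of the Sscrofa11.1 assembly on chromosomes 1 to 18 and X whose symbol is RPL, RPS or RPLP followed by a digit, or RPSA, without the RPS6K kinase genes. They numbered 85 of 19484 protein-coding genes, with 52 names of the large and 33 of the small ribosomal subunit. RPL18 was listed at 2 places, a gene on chromosome 6 and a copy of 600 bp on chromosome 1. No member was chosen by a measured value. Among the 85 were 9 copies and namesakes: RPL3L, RPL7L1, RPL10L, RPL22L1, RPL26L1, RPL36AL, RPS27L, RPS19BP1 and the copy of RPL18.

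Ribosomal proteins assemble with ribosomal RNA into the small subunit, which reads the mRNA, and the large subunit, which joins the amino acids. Every growing cell makes them in nearly equal numbers, so their genes are among the most strongly transcribed of the genome and are often used as a reference. H3K4me3 (trimethylation of lysine 4 of histone H3) marks active promoters, and H3K27ac (acetylation of lysine 27) marks active promoters and enhancers.

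Uterine muscle of Yorkshire gilts, which are young female pigs, was profiled by CUT&Tag, in which a protein A-Tn5 fusion cuts the DNA next to an antibody bound to the mark. The 3 sample types were the circular muscle on day 15 of pregnancy (GD15M_CM), the longitudinal muscle on day 15 of pregnancy (GD15M_LM) and the circular muscle on day 15 of the oestrous cycle (CD15M_CM), all from the mesometrial side, where the uterus is attached. Each had n = 2 gilts, with an H3K4me3, an H3K27ac and an IgG library for each gilt (18 libraries), and the pregnant gilts had been mated naturally. Both gilts of a type were pooled before peak calling, which left 6 peak lists, 1 per mark and tissue. No list has a replicate, so no spread between gilts can be given and no test between tissues was made.

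The lists held 31910 to 36331 H3K4me3 peaks and 57010 to 82037 H3K27ac peaks, and they carry no read depth. Fold enrichment is the signal of a peak over the background that MACS2 set for it, and whether the IgG libraries gave that background is not given in the sources used here. A member was given its strongest peak within 3 kb of either gene end. The percentile of that peak gives its place among the peaks of the same list, ordered by fold enrichment, where 100 is the strongest. Percentiles were used beside fold enrichments because lists of different depth have no common scale. The tissue labels were checked against markers. All 10 smooth muscle genes of the list (MYH11, ACTA2, DES and others) had a peak in all 6 lists. Their H3K4me3 percentiles were 71.0 to 85.1 in GD15M_CM (median 74.7), 71.4 to 97.5 in GD15M_LM (91.03) and 77.0 to 94.5 in CD15M_CM (88.9). Their H3K27ac percentiles were closer between the tissues, at 68.6 to 97.8 (median 85.9), 68.0 to 98.5 (88.1) and 71.9 to 98.1 (91.1). Genes of the uterine epithelium (EPCAM, CDH1, keratins), of which 5 of 6 could be placed, had H3K4me3 percentiles of 75.1 to 81.6 in GD15M_CM and 71.9 to 87.4 in CD15M_CM but 12.9 to 59.3 in GD15M_LM. For H3K27ac the same genes were at 57.9 to 84.1 and 4.75 to 84.9 in both circular muscles, and at up to 42.1 in GD15M_LM, where KRT18 and KRT19 had no peak. Of 6 leukocyte genes, 6, 6 and 5 had an H3K4me3 peak, with medians of 67.4, 60.2 and 50.4 when a missing peak counts as 0, and 3, 2 and 2 an H3K27ac peak, with PTPRC, CD3D and CD3E without one in any list. All 4 endothelial genes had an H3K4me3 peak, with medians of 61.3, 62.4 and 65.1, and 3, 3 and 1 an H3K27ac peak. Of 3 mesothelial genes, 2 could be placed, and 2, 1 and 2 had an H3K4me3 peak. The tissues thus differed in the signal of these lists, and its part in the differences of ribosomal protein genes below was not tested. In bulk tissue, fewer cells carrying a mark and less mark per cell cannot be told apart.

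Nearly every ribosomal protein gene carried both marks in all 3 tissues. An H3K4me3 peak lay within 3 kb of 82 of 85 members in GD15M_CM, 83 in GD15M_LM and 82 in CD15M_CM, against 70.8, 71.7 and 72.6% of all protein-coding genes. An H3K27ac peak was found at 83, 84 and 83 members, against 70.4, 69.4 and 72.2% of all genes. The shares of members were 96.5 to 97.6% for H3K4me3, with 95% Wilson intervals from 90.1 to 99.4%, and 97.6 to 98.8% for H3K27ac (91.8 to 99.8%). These intervals cover counting error only. Without the 9 copies and namesakes, 75, 76 and 75 of 76 genes had an H3K4me3 peak and all 76 had an H3K27ac peak in each tissue. Genes of the mitochondrial ribosome, a separate machine with its own protein set, were marked as often, with H3K4me3 at 72 of 74 genes in every tissue. The same was found for 46 other genes of cytosolic translation (elongation and initiation factors and the like), which all had an H3K4me3 peak in each list.

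Only 3 members lacked a peak at their ends in some list. RPL10L, a retrogene copy of RPL10 that is known from the testis (chr1:176603177-176604116), had no peak in any list, and the nearest peak was at least 687 kb away. The short RPL18 copy (chr1:84378453-84379052) had no H3K4me3 peak, with the nearest 66.2 to 165 kb away. Its single H3K27ac peak, 2.82 kb away in GD15M_LM, was weak, at a fold enrichment of 3.54 and percentile 40.4. RPS3, which lines the entry channel of the mRNA on the small subunit, was the third (chr9:9612939-9630404). Its RefSeq model of 17466 bp is long for a member, whose median length was 3905 bp against 20697.5 bp of all protein-coding genes. No H3K4me3 peak lay within 3 kb of either end in both circular muscles, where the nearest peak was 3.47 and 3.57 kb away, just outside the window, and GD15M_LM had a weak one at percentile 20.9. Within the gene, however, a strong H3K4me3 peak was present in all 3 tissues. It spanned chr9:9624630-9626935 in GD15M_CM (fold enrichment 18.9, percentile 87.4), chr9:9624659-9627180 in GD15M_LM (24.7, percentile 88.6) and chr9:9624732-9626838 in CD15M_CM (28.2, percentile 93.7). For H3K27ac the ranks were 95.7, 84.9 and 99.4 over the whole gene but 86.8, 10.4 and 51.0 at the ends. The values of RPS3 at its gene ends therefore describe the ends of the model and not its strongest peak.

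Where members had a peak, it ranked above that of the median gene for both marks. The median H3K4me3 percentile of the members was 88.5 in GD15M_CM, 86.9 in GD15M_LM and 89.1 in CD15M_CM, against 81.3, 79.9 and 82.4 over all protein-coding genes with a peak. For H3K27ac it was 94.4, 92.6 and 90.6, against 86.7, 83.0 and 84.7. As fold enrichment, the median H3K4me3 peak of the members reached 19.4, 23.6 and 24.2, against 16.1, 19.7 and 19.8, and the median H3K27ac peak 6.10, 6.72 and 5.48, against 5.02, 5.47 and 4.88. Large and small subunit names had similar medians, with H3K4me3 percentiles of 88.9, 85.1 and 88.9 for the large and 87.8, 89.7 and 89.5 for the small subunit. The mitochondrial ribosomal protein genes were close to the members for H3K4me3 (88.6, 83.7 and 88.1) and lower for H3K27ac (92.0, 86.0 and 87.3). The translation genes had 92.1, 86.2 and 88.7 for H3K4me3 and 95.9, 92.7 and 88.1 for H3K27ac.

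**Figure D1:**
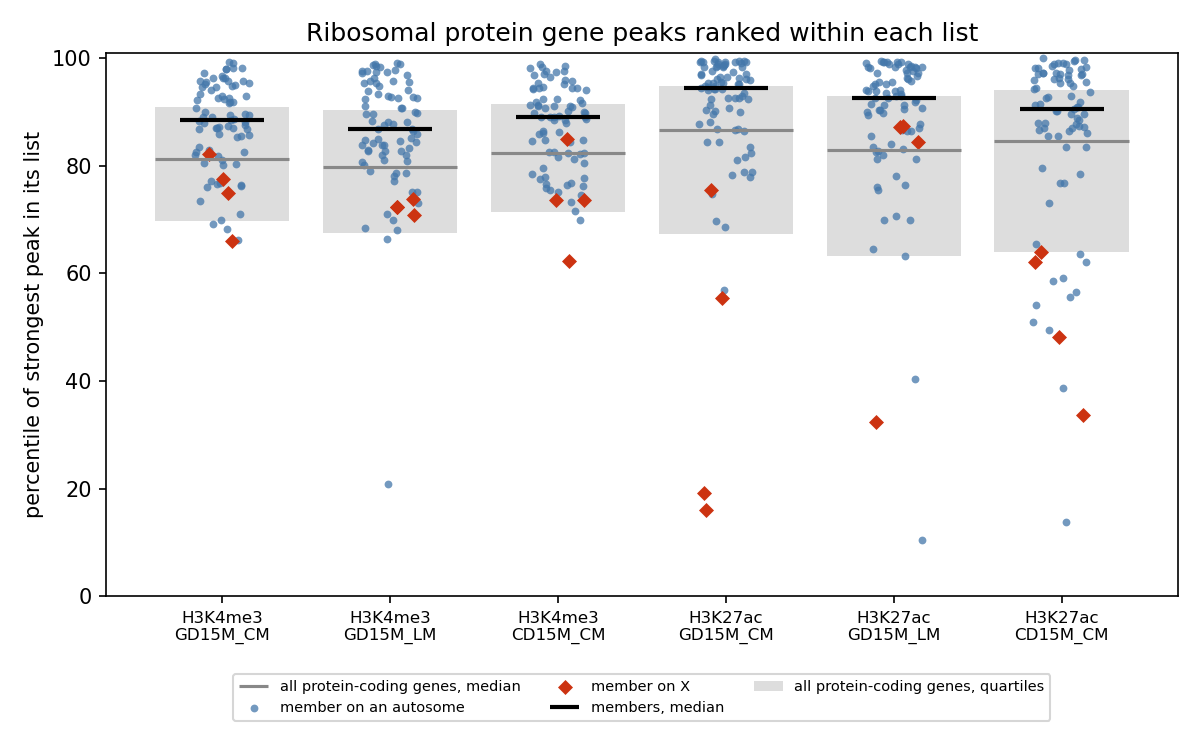
Percentile of the strongest peak of each ribosomal protein gene within its list, for 2 marks and 3 tissues. Points are members, red diamonds those on X, black lines the members' medians, and grey bars and lines the quartiles and medians of all protein-coding genes with a peak. The members' medians (86.9 to 94.4) lay above those of all genes in each list, and every member on X lay below the members' median for H3K27ac in both circular muscles.

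In the lists as deposited, a high rank was more common among the members for H3K27ac than for H3K4me3. For H3K27ac, 58, 52 and 44 members were among the top 10% of peaks, which is 69.9, 61.9 and 53.0% of those with a peak, against 41.4, 33.3 and 36.9% of all genes. For H3K4me3 there were 34, 32 and 35 (41.5, 38.6 and 42.7%, against 27.3, 25.8 and 29.4%). In all 3 lists at once, 25 of 83 members (30.1%) were in the top 10% for H3K27ac, against 13.7% of all genes. Those with large subunit names were RPL3L, RPL4, RPL5, RPL9, RPL11, RPL14, RPL18 on chromosome 6, RPL19, RPL22L1, RPL23, RPL26L1, RPL32, RPL34, RPL35, RPL37, RPLP0 and RPLP1. Those with small subunit names were RPS2, RPS7, RPS10, RPS15, RPS16, RPS20, RPS23 and RPS27A. For H3K4me3 only 9 of 82 (11.0%) were, close to the 9.75% of all genes, and they included RPL7A, RPL13A, RPL22L1, RPL23, RPL24, RPS3A and RPS19BP1. A further 22 of the 82 (26.8%) were in the top 10% of none of the H3K4me3 lists, against 50.9% of all genes, and 11 of 83 (13.3%) in none of the H3K27ac lists, against 33.6%.

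Members had several peaks at their ends more often than other genes, and the part of this in their ranks was not tested. For H3K4me3, 75.6, 69.9 and 79.3% of the members with a peak had more than 1, against 54.4, 46.2 and 51.5% of all genes. Among genes with several peaks, the median H3K4me3 percentile was 89.6, 86.2 and 89.8 for the members and 85.3, 83.7 and 85.8 for all genes. Among genes with a single peak it was 76.5, 87.7 and 82.3 for 20, 25 and 17 members, against 75.03, 75.7 and 78.0. For H3K27ac the single-peak members of GD15M_CM were at 94.1 against 82.1, those of GD15M_LM at 89.5 against 80.2 and the 18 of CD15M_CM at 77.7 against 80.2, below all genes. Among genes of up to 10 kb, which included 80 of the 85 members, the medians were 88.1, 86.7 and 88.9 against 81.3, 79.1 and 81.2 for H3K4me3. For H3K27ac they were 94.7, 92.6 and 91.0 against 86.2, 81.9 and 81.8. The part of gene length in the ranks was not tested.

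The highest H3K4me3 peak by mean percentile belonged to RPS19BP1. Values of single genes are given in the order GD15M_CM, GD15M_LM and CD15M_CM from here on. RPS19BP1, whose product binds RPS19 and activates the deacetylase SIRT1 and is no ribosomal protein, had H3K4me3 fold enrichments of 26.98, 38.6 and 34.0. Its peak also lay within 3 kb of the ends of ATF4, a stress-response transcription factor, and MIEF1. Its percentiles were 97.2, 98.9 and 97.6. The lowest H3K4me3 means belonged to RPL36A, RPL7 and RPL39. RPL36A, near the exit site of the large subunit, had fold enrichments of 9.27, 16.6 and 7.60 (percentiles 66.1, 73.9 and 62.4). RPL7 had 13.95, 15.2 and 13.6 (76.4, 71.0 and 71.5) and RPL39, at the peptide exit tunnel, 13.3, 15.8 and 14.8 (74.9, 72.4 and 73.6). These stood above the middle of each list but below the medians of all genes with a peak (81.3, 79.9 and 82.4). RPL36A was below the lower quartile of all genes in both circular muscles (69.7 in GD15M_CM and 71.5 in CD15M_CM). Apart from RPS3 in GD15M_LM no member with an H3K4me3 peak was below percentile 50. Few genes at large were, with 877 of 13804, 945 of 13974 and 765 of 14142 genes with a peak.

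For H3K27ac the highest means belonged to RPS10, RPL34 and RPLP0, which were high in every tissue. RPLP0, the base of the stalk of the large subunit that recruits elongation factors and a common reference gene in qPCR, had fold enrichments of 7.996, 9.61 and 7.17 and percentiles of 98.8, 99.3 and 98.0. RPL34 had 8.57, 9.60 and 7.24 (99.3, 99.3 and 98.2) and RPS10 7.65, 9.85 and 7.90 (98.4, 99.4 and 99.0). The peak of RPLP0 also lay near GCN1, an activator of the stress kinase GCN2, while no other gene end was near those of RPL34 and RPS10. The other stalk proteins were less even: RPLP1 had H3K27ac percentiles of 92.5, 98.4 and 93.1 and RPLP2 of 84.4, 86.5 and 88.0. The lowest H3K27ac means belonged to RPL10, RPS3 at its ends and RPL39. A member could be high for one mark and low for the other, as RPL7 with an H3K27ac fold enrichment of 8.50 in GD15M_CM (percentile 99.3) beside its H3K4me3 percentile of 76.4 there. Its H3K27ac peaks also lay at the end of RDH10, a retinol dehydrogenase.

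The same members did not lead in every tissue. Over the 82 members with an H3K4me3 peak in all 3 lists, the median range between a member's highest and lowest percentile was 11.3 points, against 11.8 for all genes. For H3K27ac it was 11.3 points over 83 members, against 20.4 for all genes, and 22 members (26.5%, against 50.9% of all genes) spanned more than 20 points. Spearman's rho of the members' fold enrichments between tissues was 0.27 to 0.37 for H3K4me3, against 0.62 to 0.67 over all genes, and 0.18 to 0.28 for H3K27ac, against 0.40 to 0.45. These are descriptions across genes, which are not replicates, and the members cover a narrow range of ranks. Between both marks of the same tissue the rho over the members was higher, at 0.56 in GD15M_CM, 0.43 in GD15M_LM and 0.51 in CD15M_CM, against 0.64, 0.62 and 0.59 over all genes. Between different marks of different tissues it was -0.01 to 0.22. Both lists of a tissue come from the same gilts, and what a shared source adds was not tested.

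**Figure D2:**
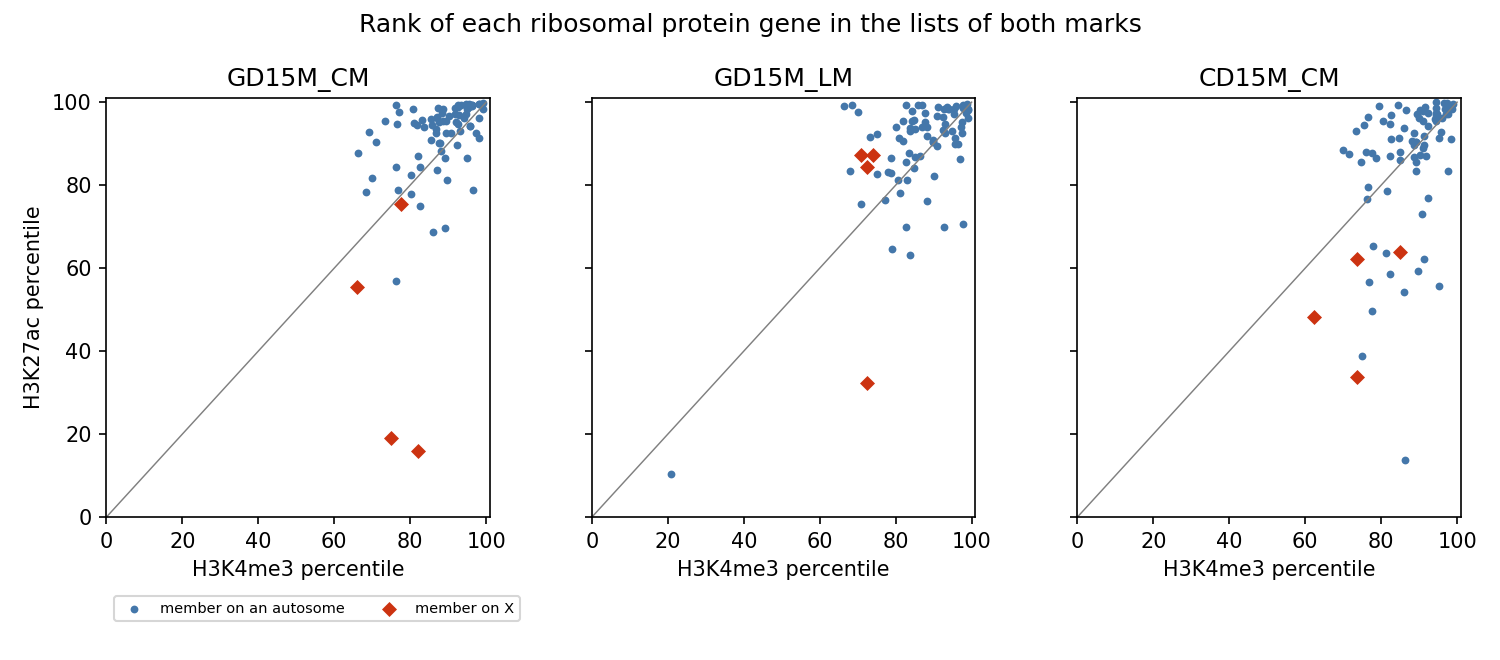
H3K4me3 percentile (horizontal) and H3K27ac percentile (vertical) of each ribosomal protein gene in the 3 tissues, with the line of equal ranks. In the lists as deposited, most points lay above the line, 60 of 82 in GD15M_CM, 56 of 83 in GD15M_LM and 51 of 82 in CD15M_CM. The members on X (red diamonds) lay below it in both circular muscles.

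Side by side, the members ranked higher for H3K27ac than for H3K4me3 in 60 of 82 cases (73.2%) in GD15M_CM, in 56 of 83 (67.5%) in GD15M_LM and in 51 of 82 (62.2%) in CD15M_CM. Over all genes the shares were 58.9, 52.0 and 51.1%. This order holds for the lists as deposited, which held more peaks for H3K27ac than for H3K4me3. With only peaks of a −log10 p from 10 and a fold enrichment from 5 upwards, the members' medians were higher for H3K4me3. They were 75.5, 75.5 and 76.0 for H3K4me3 and 63.7, 69.1 and 62.6 for H3K27ac, over the members that kept a peak. Both marks were in the top 10% for 31, 26 and 26 members (37.8, 31.3 and 31.7%), against 22.2, 18.4 and 21.2% of all genes.

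The members' peaks were also longer than those of the median gene. In the order GD15M_CM, GD15M_LM and CD15M_CM, median lengths of the strongest H3K4me3 peak were 2911.5, 3141 and 3270.5 bp, against 2516.5, 2666 and 2744 bp for all genes. For H3K27ac it was 1795, 1602.5 and 1896 bp, against 1597, 1390 and 1556 bp. The strongest H3K4me3 peak reached both ends of 16, 18 and 18 members (19.5, 21.7 and 22.0%), against 2.83, 3.44 and 3.66% of all genes. For H3K27ac this was so at 6, 2 and 4 members (7.23, 2.38 and 4.82%), against 1.15, 0.844 and 1.11%. The strongest H3K4me3 peak covered neither end of 8, 8 and 10 members (9.76, 9.64 and 12.2%), against 19.8, 18.9 and 18.8% of all genes. The strongest H3K27ac peak covered neither end of 24, 18 and 27 members (28.9, 21.4 and 32.5%), against 37.8, 32.9 and 38.5%. The members are short genes (median 3905 bp, against 20697.5 bp), and the part of gene length in these shares was not tested. Among genes of up to 10 kb, the members' median H3K4me3 peak lengths were 2875.5, 3104 and 3160.5 bp. All genes of up to that length had 2730, 2921 and 3067 bp. Strength and length were nearly unrelated over the members, with a Spearman's rho of 0.07 to 0.14 for H3K4me3, against 0.50 to 0.52 over all genes.

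**Figure D3:**
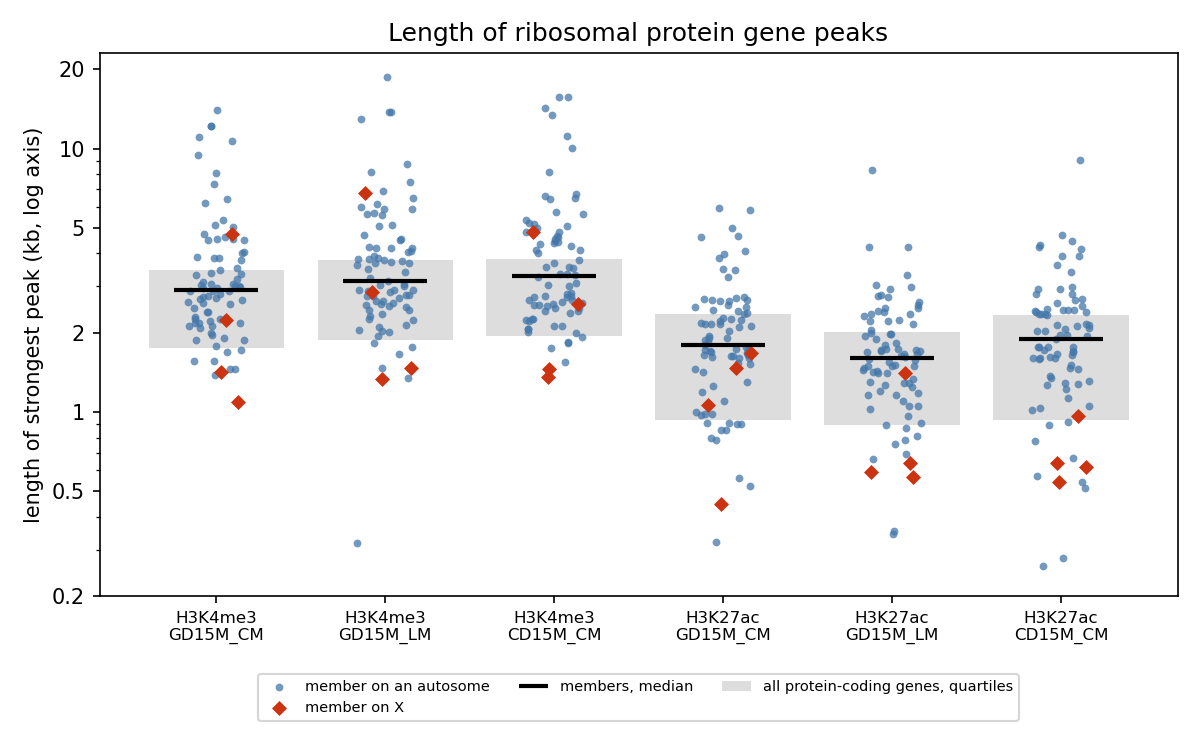
Length of the strongest peak of each ribosomal protein gene in kb on a log axis, by mark and tissue, with red diamonds for members on X and grey bars for the quartiles of all protein-coding genes. The members' medians (black lines, 2911.5 to 3270.5 bp for H3K4me3 and 1602.5 to 1896 bp for H3K27ac) lay inside the grey bars, and a few H3K4me3 peaks exceeded 10 kb.

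The longest H3K4me3 peaks lay in gene-dense places. RPL7A, beside the SURF genes on chromosome 1 (chr1:272961421-272965636), had H3K4me3 peaks of 14005, 18617 and 14298 bp, which also lay within 3 kb of the ends of SURF2, SURF6 and MED22. RPS2 and RPL3L are neighbours on chromosome 3 and shared a strongest peak in each list, of 12176, 13703 and 15668 bp for H3K4me3, which also lay within 3 kb of the ends of TBL3, RNF151 and NDUFB10, a subunit of respiratory complex I. Their values are therefore 1 measurement and not 2, and the H3K4me3 fold enrichments of 24.9, 25.5 and 24.2 given for RPL3L, a paralogue of RPL3 known from striated muscle, cannot be assigned to it. More generally, the strongest H3K4me3 peak of 50, 53 and 52 members (61.0 to 63.9%) had the end of another protein-coding gene within 3 kb, against 39.8 to 40.03% of all genes, and that of H3K27ac of 44, 46 and 46 (53.0 to 55.4%), against 38.1 to 38.98%. The longest H3K27ac peaks belonged to RPS19BP1 (1099, 8263 and 9041 bp), RPL7 (4599, 2989 and 4474 bp) and RPL7A (5008, 2208 and 4699 bp).

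The comparison of the layers asked at which members the strongest peak near a gene end differs between circular and longitudinal muscle of pregnancy. As the gene table has no strand, promoters were not set apart from the other gene end. Fold enrichments of GD15M_CM were divided by those of GD15M_LM, and the log2 ratios were centred on the median of all protein-coding genes with a peak in both lists, which was 0.805-fold for H3K4me3 and 0.921-fold for H3K27ac. The members' medians lay close to that of all genes, and fewer members than genes at large were past 1.5-fold for H3K4me3. The median centred log2 ratio of H3K4me3 was 0.01 over 82 members, with 6 members at least 1.5-fold higher in GD15M_CM, against 14.1% of all genes, and 7 higher in GD15M_LM, against 14.4%. These are 7.32 and 8.54% of the members. The SD of the ratios was 0.46 over the members and 0.59 over all genes. For H3K27ac the median was -0.06 over 83 members, with 9 members (10.8%) higher in each layer, against 12.7 and 11.4% of all genes. Without centring, 3 members were higher in GD15M_CM and 21 in GD15M_LM for H3K4me3, against 6.18 and 29.8% of all genes, and 6 and 15 for H3K27ac, against 8.34 and 16.6%.

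Single members differed more between the layers. RPL11, which with RPL5 binds the smallest ribosomal RNA and the p53 regulator MDM2, had an H3K4me3 fold enrichment of 11.6 in GD15M_CM and 34.2 in GD15M_LM, a centred log2 ratio of -1.25, and its H3K27ac ratio was -0.59. RPL5 pointed the same way, with -0.76 for H3K4me3 and -0.31 for H3K27ac. RPS20 (12.7 and 30.7, -0.97) and RPL29 (9.32 and 22.2, -0.94) were the other members furthest to the longitudinal side for H3K4me3. On the circular side stood RPL27 (25.5 and 13.6, 1.22), RPL34 (25.01 and 13.8, 1.17) and RPL18 on chromosome 6 (19.5 and 12.7, 0.93). The strongest peaks of RPL27 in the 2 lists did not overlap, so different peaks were compared there. That of RPL18 was 11029 bp long in GD15M_CM, and its ratio turned to -1.06 when distances were taken from the peak centre. RPL34 was the clearest of these, with peaks of 1913, 1942 and 1549 bp and no other gene end near them, yet its H3K27ac ratio was -0.05. Another gene end lay within 3 kb of the H3K4me3 peaks of RPL5, RPL11, RPL18, RPL27 and RPL29 in both layers, but not of RPS20.

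For H3K27ac, RPS6 was furthest to the longitudinal side. RPS6 is the small subunit protein that S6 kinases phosphorylate when growth signals arrive. Its H3K27ac fold enrichments were 3.66, 9.60 and 6.06, with percentiles of 56.9, 99.3 and 94.5, and the ratio of the layers was -1.27. RPL10, the large subunit protein needed for joining of the subunits (-1.01), and RPL39 (-0.89) followed. The members furthest to the circular side were RPS29, a zinc-binding small subunit protein (8.79 and 4.60, 1.05), RPS3 at its ends (1.001, with peaks that did not overlap) and RPL7 (8.50 and 4.88, 0.92).

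The comparison of GD15M_CM with CD15M_CM asked how pregnant and cyclic circular muscle differ, and it shares the GD15M_CM lists with the comparison of the layers. All genes had a median ratio of 0.794-fold for H3K4me3 and 1.02-fold for H3K27ac before centring. After centring, the median log2 ratio of H3K4me3 was 0.03 over 82 members. A total of 14 members (17.1%) were at least 1.5-fold higher in GD15M_CM and 6 (7.32%) in CD15M_CM, against 12.8 and 12.8% of all genes. Without centring the counts were 2 and 17, against 4.404 and 30.3% of all genes. With peaks measured by −log10 p they were 2 and 1, against 6.76 and 8.39%. For H3K27ac the median was 0.13 over 83 members. Here 10 members (12.0%) were higher in GD15M_CM, near the 10.2% of all genes, and 2 (2.41%) in CD15M_CM, against 9.82%. Without centring the counts were 14 and 2, against 11.3 and 8.90% of all genes. In all, 50 of 83 members (60.2%) lay above the median of all genes, above which by definition as many genes lie as below it. So did 44 of 73 mitochondrial ribosomal protein genes (60.3%) and 34 of 45 translation genes (75.6%).

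**Figure D4:**
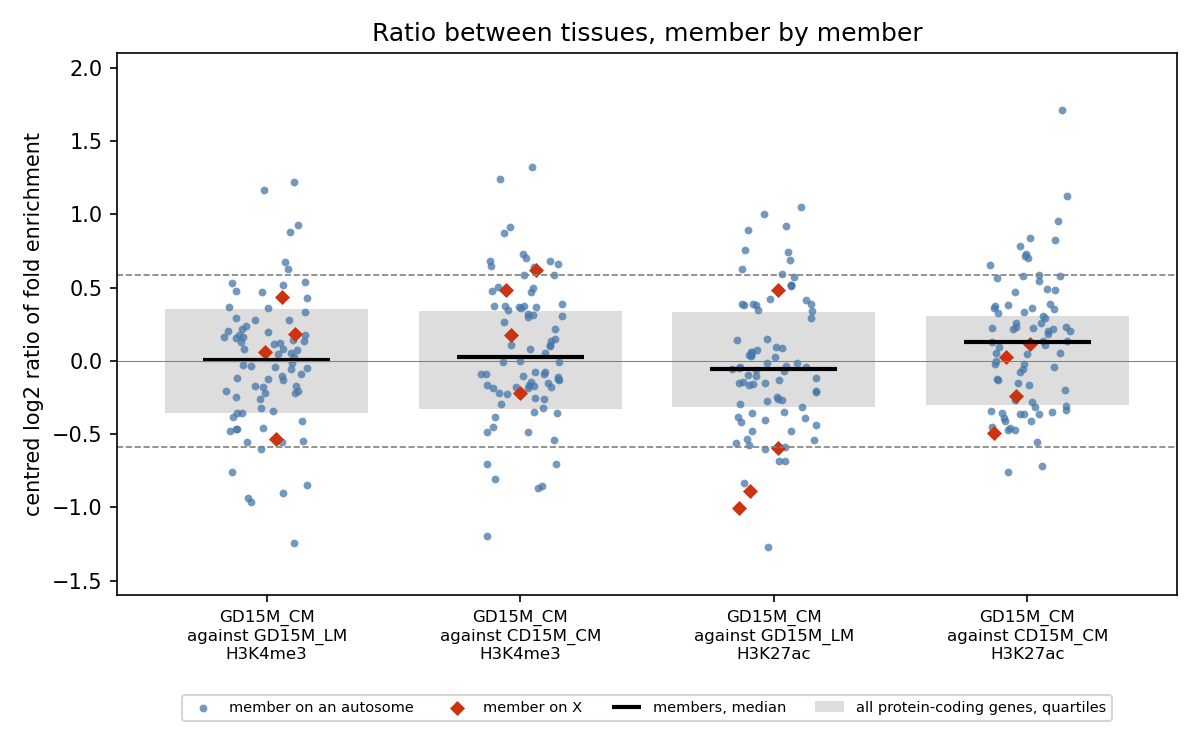
Centred log2 ratio of fold enrichment of each ribosomal protein gene in 4 comparisons of GD15M_CM with GD15M_LM or CD15M_CM. Points above 0 are higher in GD15M_CM, dashed lines mark 1.5-fold, grey bars the quartiles of all protein-coding genes and black lines the members' medians (0.01, 0.03, -0.06 and 0.13 from left to right). Most members lay between the dashed lines.

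Among the single members, RPL7L1 and RPS27 had the highest H3K4me3 ratios of GD15M_CM over CD15M_CM. RPL7L1, a relative of RPL7 with a role in ribosomal RNA processing (chr7:37940549-37948258), had H3K4me3 fold enrichments of 32.0, 21.6 and 16.1 and H3K27ac fold enrichments of 10.2, 5.99 and 5.17. GD15M_CM was highest for both marks, the ratios to CD15M_CM were 1.32 and 0.96 and those to GD15M_LM 0.88 and 0.89, and no other gene end lay near its peaks. It was the only member past 1.5-fold in all 4 comparisons, which all use a GD15M_CM list. Of all genes compared at least once, 1.95% were. A total of 43 of 83 members (51.8%) were past it in none and 23 (27.7%) in 1, against 42.9 and 31.6% of all genes. RPS27, a zinc-binding small subunit protein, had H3K4me3 fold enrichments of 33.0, 37.5 and 17.6 and a ratio of 1.24, with 0.57 for H3K27ac. RPL27A followed (0.91), but from peaks that did not overlap. On the cyclic side of H3K4me3 were RPS15A (10.4, 24.1 and 29.9, ratio -1.19), RPS27A, which is made as a fusion with ubiquitin (16.0, 27.6 and 36.7, -0.87), and RPL8 (10.8, 14.6 and 24.6, -0.86). For RPS15A and RPS27A both GD15M_LM and CD15M_CM stood above GD15M_CM. The H3K4me3 peaks of RPS27, RPL27A, RPS27A and RPL8 lay within 3 kb of another gene end in every list, while those of RPS15A did not.

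For H3K27ac the largest ratio of any member was that of RPS29, with fold enrichments of 8.79, 4.60 and 2.63 and a centred log2 ratio of 1.71 for GD15M_CM over CD15M_CM. Its percentile was 13.8 in CD15M_CM and 99.5 in GD15M_CM, while its H3K4me3 percentile was 98.1, 97.7 and 86.4. RPL6 (7.80, 8.05 and 3.51, ratio 1.12) and RPL7L1 followed. On the cyclic side were RPS6 (-0.76), RPS25, whose peaks did not overlap (-0.72), and RPL5 (-0.55), the last short of 1.5-fold. RPS6 thus had the lowest H3K27ac ratio of any member in both comparisons, which share the GD15M_CM list. Its H3K4me3 fold enrichments were 13.8, 23.6 and 15.8.

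The strongest peaks of a member were mostly the same region in different tissues for H3K4me3 and less so for H3K27ac. They overlapped in all 3 lists for 74 of 82 members (90.2%) for H3K4me3 and for 54 of 83 (65.1%) for H3K27ac, against 91.5 and 68.8% of all genes. Restricted to members whose peaks overlapped between GD15M_CM and CD15M_CM, 13 of 76 were higher and 5 lower in GD15M_CM for H3K4me3, against 12.95 and 12.8% of all genes with overlapping peaks, and 7 and 1 of 61 for H3K27ac, against 10.6 and 10.1%. Between the layers, 5 of 78 were higher and 7 lower in GD15M_CM for H3K4me3, against 14.04 and 14.6%, and 6 and 8 of 64 for H3K27ac, against 13.7 and 11.5%.

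The 4 members on the X chromosome, RPL10, RPL36A, RPL39 and RPS4X, all ranked below the median of the autosomal members for H3K27ac in each tissue. Their median H3K27ac percentile was 37.3 in GD15M_CM, 85.8 in GD15M_LM and 55.2 in CD15M_CM, against 94.8, 93.0 and 91.0 for the members on autosomes. The median of all X-linked genes with a peak was 63.7, 70.6 and 59.7, against 87.1, 83.35 and 85.0 for all autosomal genes. In GD15M_LM the median of the 4 thus lay above those of all X-linked and all autosomal genes. The percentiles were 16.1, 87.3 and 33.7 for RPL10, 55.5, 87.2 and 48.3 for RPL36A, 19.2, 84.4 and 62.1 for RPL39 and 75.4, 32.4 and 63.9 for RPS4X. The first 3 were highest in GD15M_LM and at least 1.5-fold above GD15M_CM there after centring, while RPS4X was lowest in GD15M_LM. In the circular muscles, RPS4X in both and RPL39 in CD15M_CM stood above the median of all X-linked genes. Of all X-linked genes, 17.1% were 1.5-fold higher in GD15M_LM, against 11.4% of all genes. None of the 4 was in the top 10% of any list for either mark, and of the X-linked genes with a peak in all 3 lists 75.99% were in none for H3K4me3 and 69.7% for H3K27ac. For H3K4me3 their medians were 76.2, 72.4 and 73.6, near the 71.9, 73.2 and 74.7 of all X-linked genes, and below the 88.9, 87.7 and 89.1 of the autosomal members. All are gilts, so the sex of the animals was the same in every group.

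**Figure D5:**
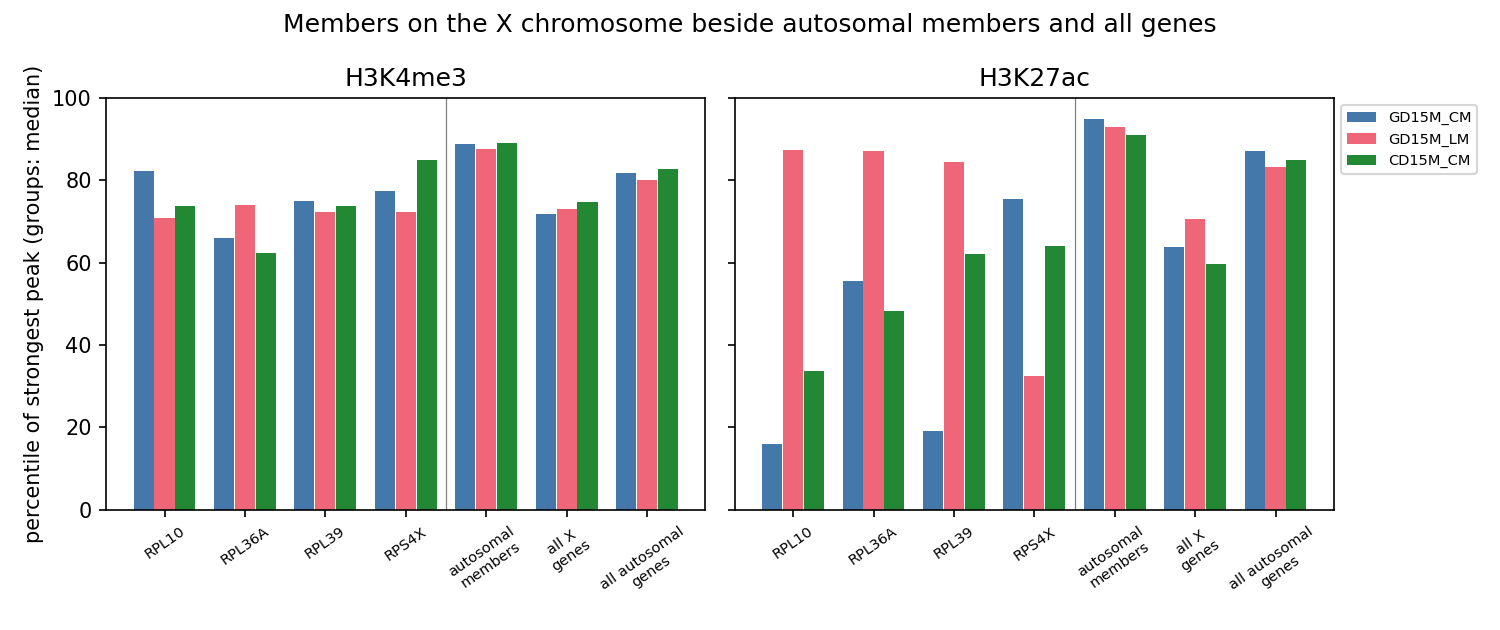
Percentile of the strongest peak of the 4 ribosomal protein genes on X, and the median percentiles of autosomal members, of all X-linked and of all autosomal genes, for H3K4me3 (left) and H3K27ac (right), coloured by tissue. For H3K27ac, RPL10, RPL36A and RPL39 were higher in GD15M_LM (84.4 to 87.3) than in both circular muscles (16.1 to 62.1), and RPS4X was lower there (32.4).

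The other members with known roles were marked in every tissue. RPL3, at the peptidyl transferase centre, had H3K4me3 fold enrichments of 19.8, 22.4 and 16.6 but H3K27ac percentiles of only 69.7, 84.1 and 56.6. RPSA, a small subunit protein also known as the laminin receptor, had H3K4me3 percentiles of 94.1, 78.0 and 88.6 and H3K27ac percentiles of 96.2, 83.1 and 86.7, with GD15M_CM 1.54-fold above GD15M_LM in H3K4me3 after centring. RPL13A, which can leave the ribosome to silence mRNAs after interferon-gamma signals, was in the top 10% for H3K4me3 in all tissues (24.1, 30.9 and 32.7), and its centred H3K4me3 ratios were -0.04 between the layers and -0.11 between pregnant and cyclic muscle. Its H3K27ac percentiles were 86.4, 91.3 and 97.1, and its strongest H3K27ac peak in GD15M_CM did not overlap that of either other list. RPS27A had H3K27ac percentiles of 94.9, 93.3 and 98.3.

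Of the 9 copies and namesakes, 7 had an H3K4me3 peak in each list, and RPL10L and the copy of RPL18 had none. Reads of near-identical paralogues can be shared between them, so their values are uncertain. RPL22L1 had H3K4me3 fold enrichments of 21.9, 27.9 and 26.1 beside 24.0, 20.8 and 19.4 of RPL22, and RPL26L1 had 19.1, 30.2 and 28.9 beside 23.8, 34.0 and 24.1 of RPL26. RPL36AL, an autosomal relative of the X-linked RPL36A, had 29.0, 22.6 and 34.1 beside 9.27, 16.6 and 7.60, and H3K27ac fold enrichments of 5.55, 5.88 and 6.75 beside 3.60, 5.92 and 3.47. RPS27L, which is induced by p53, had 18.6, 21.8 and 15.6 for H3K4me3 beside 33.0, 37.5 and 17.6 of RPS27, with H3K27ac percentiles of 93.6, 63.2 and 38.8.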

How the data were processed

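CUT&Tag libraries were available for 2 marks and an IgG control in 3 tissue types. According to the submitters' processing notes, BWA 0.7.17-r1188, SAMtools 1.9, Picard 2.8.3 and MACS2 2.2.6 were used. The authors pooled the replicates of a type, removed duplicate and poorly mapped reads, called peaks with MACS2 and deposited 1 list per mark and type. Each deposited list gives the position and length of a peak, its fold enrichment (a ratio to background) and a −log10 p-value and q-value, whose column names could not be read, so these columns were identified from their order and values. The lists hold no read counts, so the depth behind a value is unknown here.

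Gene positions came from RefSeq Sscrofa11.1. The gene table has no strand, so both gene ends were used, with a window of 3 kb. The strongest peak by fold enrichment was kept, its percentile taken within its list, and log2 ratios were centred on the median of all protein-coding genes. With pooled lists no test was made, and a member at least 1.5-fold from the centre was counted as higher. Wilson intervals were computed at 95%. Single genes were named as the 3 highest and 3 lowest by mean percentile, the 3 with the longest peaks, the 3 furthest to each side in each comparison, and a list of members with known roles or paralogues, of which RPL41 and RPL39L were not analysed here. Some members that these rules pick are not reported here by name. The members and lists were chosen with earlier results of these data known. Promoter sequences were not used here. Python 3.11.15, pandas 2.3.3, NumPy 2.4.6, SciPy 1.17.1 and Matplotlib 3.10.9 were used, and the code was tested on simulated data. Alternatives were another window, threshold, ranking, joining of peaks and centring.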

Additional observations from a re-analysis of the deposited data

How the results depend on the processing

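Of 234 alternative values of the group results, 192 stayed within the range set for them and 42 moved. Keeping peaks with a −log10 p from 10 and a fold enrichment from 5 upwards gave median H3K4me3 percentiles of 75.5, 75.5 and 76.0, with all genes at 63.0, 63.7 and 63.8. It left an H3K27ac peak at 76.5, 85.9 and 64.7% of the members, against 34.998, 40.6 and 33.3% of all genes, at median percentiles of 63.7, 69.1 and 62.6, against 58.2, 57.3 and 57.0. It left 3 of 57 members higher in each layer for H3K27ac, against 5.36 and 4.29% of all genes, and 5 of 48 higher in GD15M_CM and 0 in CD15M_CM, against 4.22 and 3.10%. With the same number of top peaks in each list, the H3K27ac medians were 92.2 in GD15M_CM and 86.5 in CD15M_CM. With nearby peaks joined the medians were 82.6, 82.9 and 83.8 for H3K4me3 and 91.8, 90.3 and 87.0 for H3K27ac, against 72.3, 73.0 and 74.6 and 82.1, 78.3 and 79.8 for all genes. Ranked by −log10 p, the H3K4me3 median was 85.9 in GD15M_CM, against 82.1. By the same measure 2 and 2 members differed between the layers, against 8.65 and 11.6% of all genes. Between GD15M_CM and CD15M_CM 2 and 1 did, against 6.76 and 8.39%. Without centring, the median log2 ratios were -0.31 for H3K4me3 in both comparisons and -0.17 for H3K27ac between the layers, with 3 and 21, 2 and 17, and 15 members on the side of GD15M_LM for the last. The remaining alternatives were chosen after seeing the data. Without members near another gene end, the counts were 3 and 4 of 29 and 8 and 1 of 30 for H3K4me3 (all genes so restricted: 14.8 and 16.98%, 13.2 and 14.2%), and 5 and 7 of 35 and 5 and 1 of 34 for H3K27ac (12.8 and 12.9%, 9.90 and 11.3%). The median of the 30 was 0.24. With overlapping strongest peaks only, 1 of 61 was higher in CD15M_CM for H3K27ac, against 10.1% of all genes. Among the single genes named, the ratio of RPL18 on chromosome 6 between the layers reversed for H3K4me3 (-1.06 from the peak centre). The causes were not tested. No paired analysis was possible because the replicates were pooled before peak calling, and for the same reason no replicate could be left out. An alternative with the transcription start end alone was not run, since the gene table has no strand.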
